A study of Mus musculus with 90 samples.

Results

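The 10 core circadian clock genes Arntl, Clock, Per1, Per2, Per3, Cry1, Cry2, Nr1d1, Nr1d2 and Dbp were followed in 4 tissues of cold-exposed male mice that lacked UCP1, FGF21 or both. The genes were taken by name from a table of 32697 gene rows, and all 10 were present and tested in every tissue. UCP1 is the mitochondrial protein that lets brown fat burn fuel for heat, and FGF21 is a hormone released by liver and stressed adipose tissue. The mice were homozygous for their genotype: the double knockout of UCP1 and FGF21 (dKO), the UCP1 knockout (UCP1 KO), the FGF21 knockout (FGF21 KO) and the wild type (WT). All groups had been bred at thermoneutrality (30 °C). Cooling began when the males were 10 to 12 weeks old, with 12 days spent at 18 °C followed by 3 weeks spent at 5 °C. Food was withheld over the last 2 to 3 h. No group was kept warm, so the contrasts compare genotypes within the cold. RNA came from brown adipose tissue (BAT), inguinal white adipose tissue (iWAT), muscle (spelled Gastrognemius in the labels) and hypothalamus. In the order dKO, UCP1 KO, FGF21 KO and WT there were 6, 6, 5 and 5 libraries of BAT, 6, 6, 5 and 6 of iWAT, 6, 6, 5 and 6 of muscle, and 5, 6, 5 and 6 of hypothalamus. The labels do not say how the alleles were made, which libraries share a mouse or at what clock time tissue was taken.

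The mammalian clock is a feedback loop of transcription. The proteins of Arntl (BMAL1) and Clock bind E-boxes and switch on the Period and Cryptochrome genes, whose proteins return to the nucleus and block BMAL1 and CLOCK. A second arm consists of Nr1d1 and Nr1d2 (REV-ERB alpha and beta), which are switched on by BMAL1 and CLOCK and repress Arntl through ROR elements, so that Arntl RNA peaks when the RNA of Dbp, Nr1d1 and the Period genes is low. Dbp, a direct target of the same E-box activators, encodes a factor that acts on D-boxes. Most of these RNAs cycle through the day in adipose tissue and muscle, and Per1 also responds within hours to glucocorticoids and other acute signals.

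Promoter windows of 300 bases (250 before and 50 after the annotated start) from RefSeq, build GRCm38.p6, were found for 9 of the 10 members, all but Per2, in 13 windows. They were searched on both strands for 4 elements of the loop: the E-box CACGTG, the D-box TTATGTAA or TTACGTAA, the core of the ROR element TAGGTCA or TGGGTCA, and the cyclic AMP response element TGACGTCA. These letters occur in 7.15%, 1.06%, 6.45% and 1.79% of the 32851 windows of all genes. Matches were found in 4 members, with capitals marking the motif in the stretches below, which are shown because Cry1 gave the largest genotype difference of the set in iWAT, Per3 fell in both fat depots of dKO mice, Per1 was the most variable member, and Arntl is the activator these genes answer to.
Cry1 upstream, chr10:85185055-85185304, minus strand: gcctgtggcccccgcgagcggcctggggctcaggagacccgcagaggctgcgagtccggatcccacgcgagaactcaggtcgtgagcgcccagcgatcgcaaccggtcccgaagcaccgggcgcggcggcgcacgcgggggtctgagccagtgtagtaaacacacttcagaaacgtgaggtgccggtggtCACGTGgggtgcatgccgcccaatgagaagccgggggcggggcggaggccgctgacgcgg
Per3 upstream, chr4:151044666-151044915, minus strand: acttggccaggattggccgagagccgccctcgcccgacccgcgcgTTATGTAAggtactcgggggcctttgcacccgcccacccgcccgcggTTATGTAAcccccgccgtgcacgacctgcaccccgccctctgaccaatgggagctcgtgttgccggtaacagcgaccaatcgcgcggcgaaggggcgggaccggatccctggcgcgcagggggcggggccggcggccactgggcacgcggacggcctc
Per1 upstream of a start inside the gene, chr11:69098699-69098948, plus strand: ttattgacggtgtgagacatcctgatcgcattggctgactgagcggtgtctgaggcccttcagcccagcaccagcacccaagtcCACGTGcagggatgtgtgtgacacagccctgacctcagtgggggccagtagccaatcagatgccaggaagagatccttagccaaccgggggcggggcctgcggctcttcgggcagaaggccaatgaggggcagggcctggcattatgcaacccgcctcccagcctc
Arntl, 30 bases after a start, chr7:113207530-113207559, plus strand: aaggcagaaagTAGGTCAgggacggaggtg

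Counted from the annotated start, the E-box letters of Cry1 began at position -60 and those of Per1 at -166, and the 2 D-box matches of Per3 began at -205 and -158. The letters of the ROR core in Arntl began at position 31. The windows of Clock, Cry2, Nr1d1, Nr1d2 and Dbp held none of the 4 motifs, which says only that those letters are absent from these bases. Dbp lies at chr7:45705088-45710203 on the same chromosome as Fgf21, with 89.6 kb between them, and Arntl lies 67.59 Mb from Fgf21. In the annotation (GENCODE, GRCm38) Nr1d1 overlaps Thra on the opposite strand, Dbp overlaps the end of Sphk2 on the opposite strand, and Per3 lies within Camta1 on the same strand. The libraries were strand-specific, but the strand setting of the counting is not given in the sources used here, so reads of such neighbours may be mixed.

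The 90 libraries held 18067899 to 69886357 counts. Levels are given as CPM, the count of a gene over the scaled total of its library. Fgf21 RNA was at most 0.0933 CPM in dKO adipose libraries and at most 0.402 CPM in FGF21 KO ones, against 7.31 to 38.9 CPM in UCP1 KO and 0.170 to 1.73 CPM in WT adipose libraries, while no muscle or hypothalamus library exceeded 0.103 CPM. Ucp1 RNA in BAT was 1354 ± 143 CPM in dKO (SD, n = 6), 1139 ± 192 CPM in UCP1 KO (n = 6), 11200 ± 397 CPM in FGF21 KO (n = 5) and 8524 ± 1354 CPM in WT (n = 5). In iWAT the Ucp1 count did not follow the label, at 937 to 1796 CPM in dKO, 1034 to 1774 CPM in UCP1 KO, 6.77 to 897 CPM in FGF21 KO and 104 to 1174 CPM in WT libraries. A count over the whole gene need not fall when part of it is deleted, so the iWAT genotypes are those of the labels. The defining markers of each labelled tissue were present in every library, but RNA of a neighbouring tissue varied: all 9 muscle fibre markers were counted in every BAT library, with summed levels of 66.9 to 4980 CPM in dKO, 87.8 to 7140 CPM in UCP1 KO, 156 to 11600 CPM in FGF21 KO and 401 to 27700 CPM in WT, and all 8 lymphocyte markers in every iWAT library, with 6.17 to 624 CPM in dKO, 9.16 to 585 CPM in UCP1 KO, 6.17 to 1430 CPM in FGF21 KO and 5.84 to 1170 CPM in WT. In hypothalamus the 7 choroid plexus markers summed to 46.2 to 1800 CPM over the libraries, and all 6 markers of the suprachiasmatic nucleus, the seat of the master clock, were counted in each. Fits with these levels as a covariate, or without the libraries richest in them, are given beside the calls they changed.

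In WT mice the order of the members differed between tissues. Per kilobase of exon, Nr1d1 had the highest mean in each tissue, at 48.9 ± 15.3 CPM per kb in BAT (SD, n = 5), 47.0 ± 20.5 in iWAT (n = 6), 88.1 ± 7.42 in muscle (n = 6) and 28.9 ± 2.25 in hypothalamus (n = 6). Per2 had the lowest mean in the 3 peripheral tissues, from 1.04 ± 0.306 CPM per kb in muscle to 1.63 ± 0.981 in BAT, and Arntl the lowest in hypothalamus at 5.18 ± 0.325. Between tissues, per gene, WT hypothalamus stood above the other 3 tissues without overlap for Clock (115 ± 8.25 CPM, n = 6), Per1 (66.8 ± 7.85), Per2 (31.6 ± 2.31), Per3 (56.5 ± 2.46) and Cry2 (138 ± 5.89). Nr1d1 ran the other way, with 271 ± 22.8 CPM in WT muscle, apart from all others, and 88.9 ± 6.94 CPM in WT hypothalamus. Dbp was 37.8 ± 3.34 CPM in WT hypothalamus and 37.1 ± 11.3 CPM in WT muscle, which overlapped, and 12.2 ± 9.28 and 11.3 ± 5.56 CPM in WT BAT and iWAT. Arntl formed a chain of overlapping groups from muscle (46.4 ± 6.70 CPM) through hypothalamus and iWAT to BAT (23.5 ± 6.77 CPM). CPM levels were scaled within a tissue, so these orders between tissues are descriptions.

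In BAT, Cry1 was higher and Cry2, Per3, Nr1d1, Nr1d2 and Dbp were lower in both UCP1-deficient genotypes than in WT. Of the 10 members, 7 differed between UCP1 KO and WT: Cry1 rose, and Clock, Per3, Cry2, Nr1d1, Nr1d2 and Dbp fell (edgeR quasi-likelihood test, Benjamini-Hochberg adjusted p under 0.05 over all genes of the tissue). In the same comparison 60.1% of all 16032 genes tested passed (30.2% higher and 29.9% lower), so the share of members called lay near that of all genes. Between dKO and WT, 6 members differed, all of the above except Clock, where 59.1% of all genes passed (29.7% higher and 29.3% lower). The median log2 fold change of the members was -0.40 in UCP1 KO and -0.67 in dKO against WT, beside -0.02 and -0.03 over all genes tested. In FGF21 KO against WT, where no member passed, the members' median was -0.34, beside -0.01 over all genes, so a lower median was not particular to UCP1 loss. In whole tissue, fewer cells of a type and less RNA per cell cannot be told apart. Clock time of collection is not given in the sources used here, and its part in any of these differences was not tested.

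**Figure D1:**
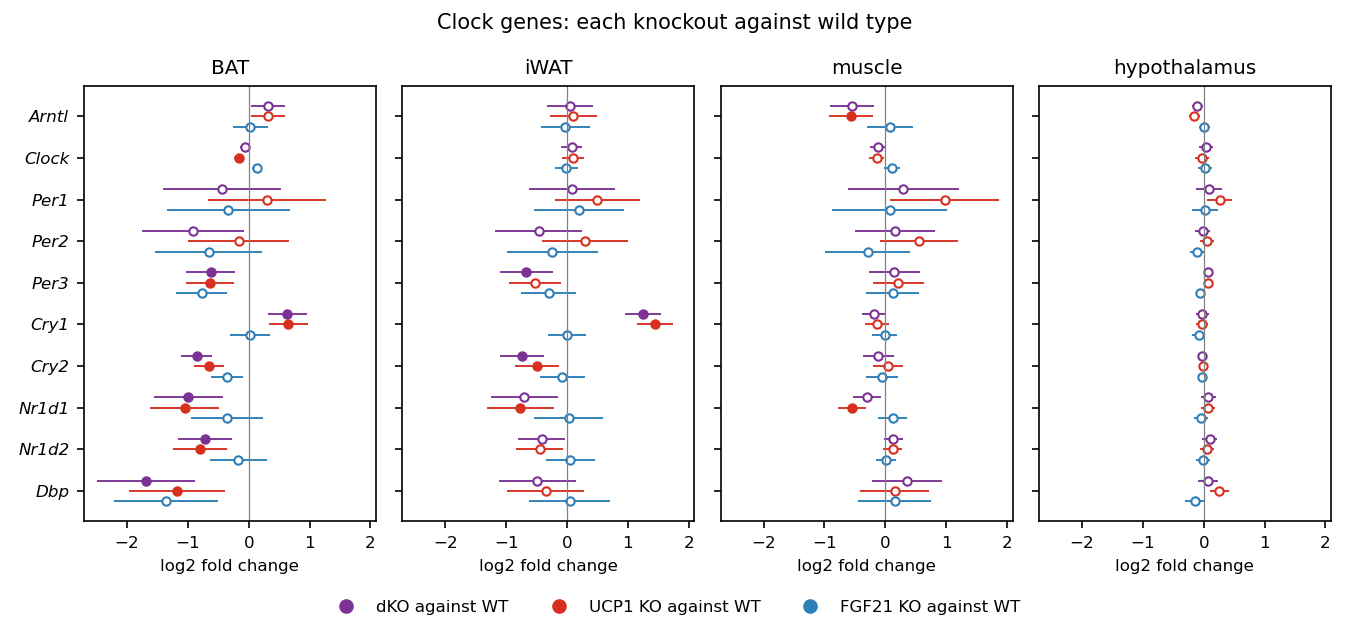
Log2 fold change (x axis) of each clock gene (rows) in dKO, UCP1 KO and FGF21 KO against WT, one panel per tissue, with 95% intervals as bars. Filled points passed an adjusted p of 0.05 over all genes tested. Filled points stand only in BAT, iWAT and muscle, none is an FGF21 KO point, and Cry1 lies to the right in both fat depots.

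Cry1 and Cry2, the paired repressors of BMAL1 and CLOCK, moved in opposite directions in BAT. Cry1 had 31.1, 35.4 and 44.0 CPM (lowest, median, highest) in the dKO libraries and 34.3, 37.1 and 39.2 CPM in the UCP1 KO libraries, 20.02, 20.7, 23.9, 26.4 and 28.1 CPM in the FGF21 KO libraries, and 15.4, 15.9, 23.4, 29.6 and 33.1 CPM in the WT libraries. All UCP1 KO libraries lay above all WT libraries, and the dKO libraries overlapped only the highest WT library. Cry1 rose by 0.64 on the log2 scale in dKO (SE 0.16, adjusted p = 0.00202) and by 0.65 in UCP1 KO against WT (SE 0.16, adjusted p = 0.00156).

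Cry2 had 19.97, 24.4 and 25.1 CPM in dKO (lowest, median, highest) and 23.0, 25.9 and 37.4 CPM in UCP1 KO BAT, 29.5, 30.0, 30.3, 37.0 and 40.4 CPM in FGF21 KO, and 34.6, 39.6, 39.7, 42.1 and 57.6 CPM in WT. All dKO libraries lay below all WT libraries, and 1 UCP1 KO library reached into the WT range. Cry2 fell by 0.86 on the log2 scale in dKO (SE 0.13, adjusted p = 6.15e-06) and by 0.66 in UCP1 KO (SE 0.13, adjusted p = 0.000131) against WT. Both Cryptochrome calls in BAT were kept under each alternative fit and each left-out library.

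**Figure D2:**
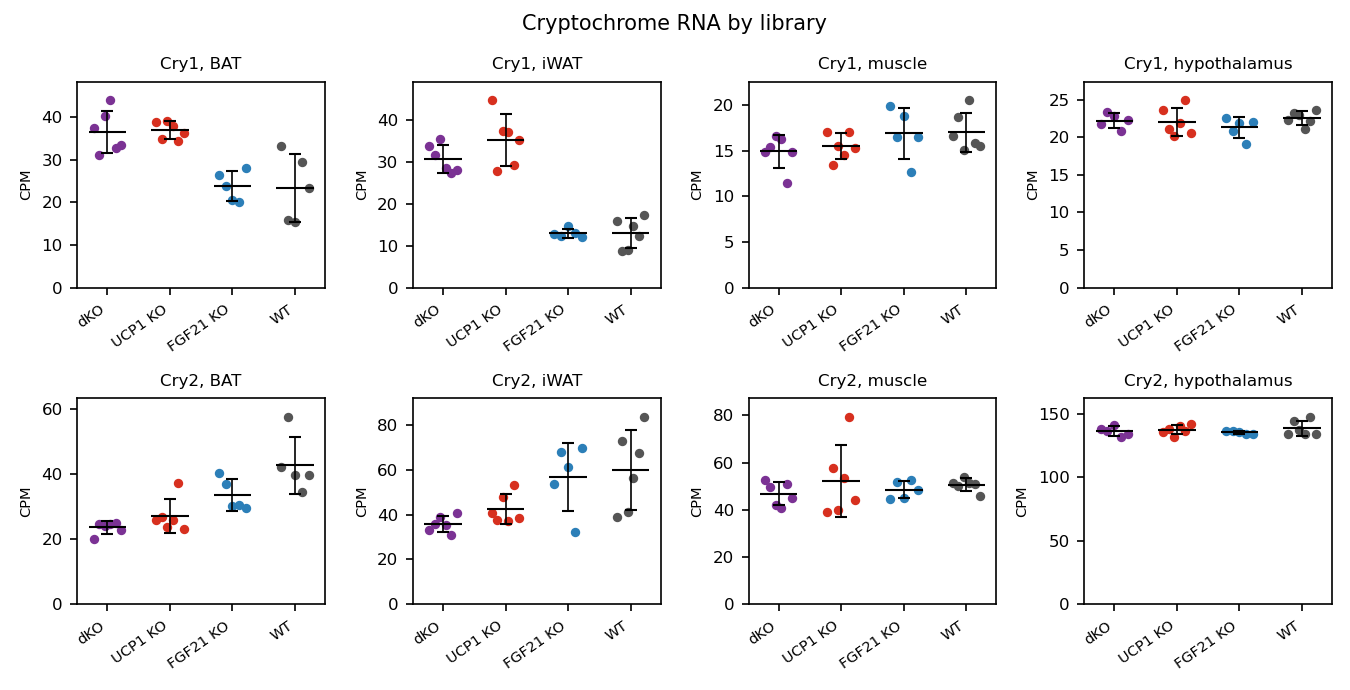
Cry1 (top) and Cry2 (bottom) RNA in CPM in each library of the 4 tissues, by genotype, with the group mean as a line and bars of 1 SD. Cry1 in iWAT lies between 27.3 and 44.6 CPM in the dKO and UCP1 KO libraries and between 8.72 and 17.3 CPM in the FGF21 KO and WT libraries, while muscle and hypothalamus show overlapping groups.

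The REV-ERB genes were lower in both UCP1-deficient genotypes. Nr1d1 had 40.0, 80.9 and 101.0 CPM in dKO (lowest, median, highest) and 48.1, 56.6 and 133.8 CPM in UCP1 KO BAT, 84.4, 111.5, 127.5, 131.1 and 135.5 CPM in FGF21 KO, and 97.5, 114.3, 156.0, 167.6 and 216.9 CPM in WT. Of the 12 UCP1-deficient libraries 9 lay below every WT library. Nr1d1 fell by 0.99 on the log2 scale in dKO (SE 0.29, adjusted p = 0.00627) and by 1.05 in UCP1 KO (SE 0.29, adjusted p = 0.00392). Thra, the thyroid hormone receptor gene that overlaps Nr1d1 on the other strand, also fell in BAT, to 59.9 ± 1.52 CPM in dKO and 58.8 ± 3.45 CPM in UCP1 KO (SD, n = 6 each), against 105 ± 3.64 CPM in WT (n = 5), and its part in the Nr1d1 count was not tested. Nr1d2, which shares no position with another gene, had 23.1, 30.5 and 48.6 CPM in dKO, 23.0, 30.4 and 42.0 CPM in UCP1 KO, 29.7, 44.8, 47.4, 54.3 and 66.5 CPM in FGF21 KO, and 34.7, 39.6, 58.3, 63.6 and 76.4 CPM in WT. The groups overlapped in part, and Nr1d2 fell by 0.72 in dKO (SE 0.23, adjusted p = 0.00959) and by 0.80 in UCP1 KO (SE 0.23, adjusted p = 0.00468).

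Dbp, the D-box activator, and Per3, a Period gene with D-box letters upstream, were lower in dKO and UCP1 KO BAT and widely spread in WT. Dbp had 3.02, 3.61 and 5.04 CPM in dKO (lowest, median, highest), 3.71, 4.93 and 8.02 CPM in UCP1 KO, 3.10, 3.33, 3.56, 5.11 and 8.71 CPM in FGF21 KO, and 3.49, 4.57, 9.78, 17.5 and 25.5 CPM in WT. The WT libraries spread over a wide range, and the lower WT libraries lay among the knockouts. Dbp fell by 1.68 on the log2 scale in dKO (SE 0.41, adjusted p = 0.00158) and by 1.18 in UCP1 KO (SE 0.41, adjusted p = 0.017). Without WT replicate 3, the highest library, the UCP1 KO difference was -0.72 (adjusted p = 0.111), and fitted from the compared genotypes alone it had an adjusted p of 0.0682, while the dKO call held in both. The FGF21 KO difference was -1.35 (SE 0.43, 95% interval -2.21 to -0.51), as large as in UCP1 KO, and did not pass over all genes (adjusted p = 0.347).

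Per3 had 12.4, 13.9 and 14.5 CPM in dKO, 10.2, 13.8 and 16.5 CPM in UCP1 KO, 10.7, 11.8, 12.7, 13.2 and 13.4 CPM in FGF21 KO, and 11.8, 15.3, 15.4, 28.2 and 34.7 CPM in WT. The 2 highest WT libraries stood far above the rest. Per3 fell by 0.63 in dKO (SE 0.20, adjusted p = 0.0116) and by 0.64 in UCP1 KO (SE 0.20, adjusted p = 0.00999). Without WT replicate 2 the differences were -0.37 (adjusted p = 0.0697) and -0.38 (adjusted p = 0.0607), and neither call held when only the compared genotypes were fitted (adjusted p = 0.0559 in dKO and 0.0669 in UCP1 KO). The FGF21 KO difference of -0.77 (SE 0.21) did not pass over all genes (adjusted p = 0.309).

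**Figure D3:**
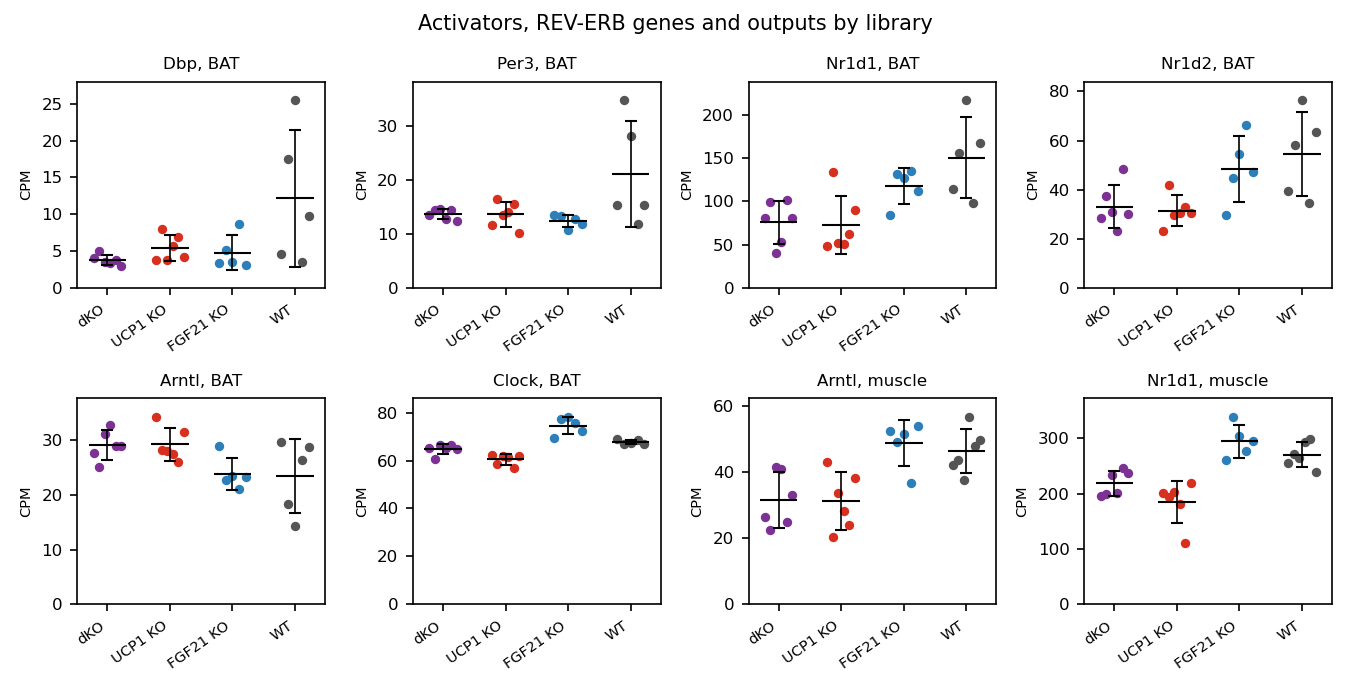
RNA in CPM in each library for Dbp, Per3, Nr1d1, Nr1d2, Arntl and Clock in BAT and for Arntl and Nr1d1 in muscle, by genotype, with the mean as a line and bars of 1 SD. Dbp in BAT reaches 25.5 CPM in WT and stays at or below 8.71 CPM in every knockout library, and Nr1d1 in muscle stays at or below 219.8 CPM in UCP1 KO and at or above 239.8 CPM in WT.

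The activator Arntl did not pass in BAT, whereas Clock, its partner, shifted by little and with high precision. Arntl averaged 29.1 ± 2.69 CPM in dKO and 29.2 ± 3.04 CPM in UCP1 KO (SD, n = 6 each), 23.9 ± 2.93 CPM in FGF21 KO and 23.5 ± 6.77 CPM in WT (n = 5 each). The differences from WT were 0.31 in dKO (adjusted p = 0.0655) and 0.32 in UCP1 KO (SE 0.14, adjusted p = 0.0597), and DESeq2 called both (adjusted p = 0.0495 in dKO and 0.0438 in UCP1 KO). Clock had 60.6, 65.2 and 66.6 CPM in dKO and 57.0, 61.7 and 62.2 CPM in UCP1 KO (lowest, median, highest), 69.5, 72.2, 75.7, 77.2 and 78.3 CPM in FGF21 KO, and 66.9, 66.9, 67.4, 68.7 and 69.0 CPM in WT. Each knockout group stood apart from WT, the UCP1-deficient ones below and FGF21 KO above. Clock fell by 0.16 on the log2 scale in UCP1 KO (SE 0.04, adjusted p = 0.000728), a fold of 0.892, and the differences of -0.06 in dKO (adjusted p = 0.16) and 0.14 in FGF21 KO (adjusted p = 0.333) did not pass.

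Per1 and Per2, the acutely inducible Period genes, did not pass in BAT in any contrast fitted on all libraries. Per1 averaged 13.6 ± 2.77 CPM in dKO and 22.8 ± 23.7 CPM in UCP1 KO (SD, n = 6 each), 14.7 ± 6.53 CPM in FGF21 KO and 18.5 ± 11.8 CPM in WT (n = 5 each). UCP1 KO replicate 5 alone held 70.9 CPM, against 11.3 to 15.7 CPM in the other UCP1 KO libraries. Per2 averaged 5.05 ± 0.805 CPM in dKO, 8.52 ± 6.25 CPM in UCP1 KO, 6.03 ± 3.87 CPM in FGF21 KO and 9.52 ± 5.74 CPM in WT. Per2 in dKO differed from WT by -0.91 (95% interval -1.75 to -0.08, adjusted p = 0.0729). It passed from the compared genotypes alone (adjusted p = 0.0311) and without UCP1 KO replicate 5 (0.0282), FGF21 KO replicate 1 (0.0444) or WT replicate 5 (0.0476). In UCP1 KO the 95% interval of the log2 difference from WT held both signs, from -0.66 to 1.27 for Per1 and from -0.99 to 0.67 for Per2.

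The BAT calls were held against the muscle fibre RNA in some libraries. With its level as a covariate the same 6 members passed in dKO and the same 7 in UCP1 KO, with Cry1 at 0.64 (adjusted p = 0.00212), Nr1d1 at -1.06 (adjusted p = 0.00468) and Dbp at -1.12 (adjusted p = 0.0257). Without the 5 BAT libraries richest in it, the same 7 passed again (and Arntl joined the 6 in dKO), with Cry1 at 0.64 (adjusted p = 0.0119), Nr1d1 at -0.92 (adjusted p = 0.0177) and Dbp at -1.17 (adjusted p = 0.0425). Markers of other cells were counted in the UCP1-deficient genotypes of BAT. The share called for lymphocytes, white adipocytes and dKO endothelium was near or below that of all genes, 59.1% in dKO and 60.1% in UCP1 KO. All 6 macrophage markers were higher in both, with summed levels of 218 to 328 CPM in dKO and 351 to 494 CPM in UCP1 KO, against 78.0 to 127 CPM in FGF21 KO and 74.6 to 104 CPM in WT. Of 8 lymphocyte markers 4 were higher in dKO and 5 in UCP1 KO, with sums of 7.28 to 10.5 and 8.82 to 12.0 CPM, against 3.98 to 7.09 CPM in FGF21 KO and 4.54 to 9.57 CPM in WT. Of 4 endothelial markers 2 were lower in dKO (sums of 644 to 763 CPM) and 4 in UCP1 KO (611 to 713 CPM), against sums of 784 to 898 CPM in FGF21 KO and 693 to 887 CPM in WT. Of 6 white adipocyte markers 3 were lower in each, and 2 had a positive difference in each. Their sums overlapped between genotypes. They were 7400 to 9800 CPM in dKO and 6220 to 9850 CPM in UCP1 KO, against 7830 to 9050 CPM in FGF21 KO. In WT they were 6770 to 10400 CPM. Of 5 brown adipocyte markers 4 were higher in each, and the fifth, Ucp1 itself, was lower. No marker was at 0 in every library, and the part of these cells in the clock gene differences was not tested.

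In iWAT the cryptochromes again parted, and Cry1 gave the largest difference of any member. Between UCP1 KO and WT 3 members passed, Cry1 higher and Cry2 and Nr1d1 lower, where 46.3% of all 16751 genes tested passed (22.3% higher and 24.0% lower). Between dKO and WT 3 members passed, Cry1 higher and Per3 and Cry2 lower, where 37.0% of all genes passed (19.0% higher and 18.0% lower). The members' share lay below that of all genes in both contrasts. The median log2 fold change of the members was -0.13 in UCP1 KO and -0.44 in dKO, beside medians of -0.13 and -0.13 over all genes tested. Cell type markers were counted beside the 37.0% and 46.3% of all genes that passed in dKO and UCP1 KO. Of 5 brown adipocyte markers 4, all but Ucp1, were higher in both, with summed levels of 2970 to 6200 CPM in dKO and 3600 to 6370 CPM in UCP1 KO, against 109 to 1280 CPM in FGF21 KO and 245 to 1740 CPM in WT. Of 6 white adipocyte markers 4 were lower in dKO (sums of 12200 to 18300 CPM) and 3 in UCP1 KO (11500 to 19400 CPM), against sums of 10400 to 26900 CPM in FGF21 KO and 10300 to 28700 CPM in WT. Of 6 macrophage markers 0 were called in dKO (279 to 444 CPM; 1 with an unadjusted p under 0.05 in edgeR) and 4 were lower in UCP1 KO (224 to 392 CPM), against 368 to 684 CPM in FGF21 KO and 332 to 638 CPM in WT. No marker was at 0 in every library, and the part of these cells in the iWAT differences was not tested.

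Cry1 had 27.3, 30.0 and 35.3 CPM in dKO (lowest, median, highest) and 27.7, 36.1 and 44.6 CPM in UCP1 KO iWAT, 12.0, 12.3, 12.7, 13.0 and 14.7 CPM in FGF21 KO, and 8.72, 13.5 and 17.3 CPM in WT. Every library labelled UCP1-deficient lay above every library with intact UCP1. Cry1 rose by 1.24 on the log2 scale in dKO (SE 0.15, adjusted p = 2.47e-06), 2.37-fold, and by 1.44 in UCP1 KO (SE 0.15, adjusted p = 2.96e-07), 2.71-fold. The FGF21 KO difference from WT was -0.00 (95% interval -0.31 to 0.31, adjusted p = 1.0). Without the 8 iWAT libraries richest in lymphocyte RNA the rises were 1.35 in dKO (adjusted p = 0.000157) and 1.54 in UCP1 KO (adjusted p = 3.94e-05). WT replicates 1, 3 and 4 were among those left out.

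Cry2 averaged 35.9 ± 3.58 CPM in dKO and 42.5 ± 6.49 CPM in UCP1 KO (SD, n = 6 each), 56.9 ± 15.2 CPM in FGF21 KO (n = 5) and 59.9 ± 17.8 CPM in WT iWAT (n = 6). The lowest WT library lay within the range of the UCP1-deficient ones. Cry2 fell by 0.74 in dKO (SE 0.18, adjusted p = 0.00304) and by 0.50 in UCP1 KO (SE 0.18, adjusted p = 0.0304). The UCP1 KO call was lost on leaving out any of 7 single libraries, WT replicates 2, 5 and 6 and UCP1 KO replicates 1, 2, 4 and 6, with the largest adjusted p at 0.0877 and a difference of -0.38 without WT replicate 6.

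Nr1d1 averaged 89.1 ± 25.7 CPM in dKO and 85.0 ± 20.8 CPM in UCP1 KO (SD, n = 6 each), 147 ± 48.7 CPM in FGF21 KO (n = 5) and 145 ± 63.0 CPM in WT iWAT (n = 6), with overlap. It fell by 0.77 in UCP1 KO (SE 0.28, adjusted p = 0.0294), and the dKO difference was -0.70 (SE 0.28, adjusted p = 0.0546). The UCP1 KO call was lost on leaving out any of WT replicates 2, 5 and 6 or UCP1 KO replicates 1, 4 and 5 (largest adjusted p = 0.0913). Without the 8 libraries richest in lymphocyte RNA, Nr1d1 differed by -1.11 in dKO (adjusted p = 0.00115; 0.0163 with lymphocyte RNA as a covariate) and by -1.28 in UCP1 KO (adjusted p = 0.000205). The fit without those 8 libraries kept only replicates 2, 5 and 6 of WT. These were the WT libraries whose single removal ended the UCP1 KO call. With all libraries, Thra differed by -0.24 in UCP1 KO iWAT (adjusted p = 0.241).

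Per3 averaged 16.8 ± 1.04 CPM in dKO and 18.6 ± 6.15 CPM in UCP1 KO, 21.7 ± 2.84 CPM in FGF21 KO and 26.8 ± 11.3 CPM in WT iWAT. It fell by 0.67 in dKO (SE 0.22, adjusted p = 0.0208), and the UCP1 KO difference was -0.52 (adjusted p = 0.0559). Without WT replicate 2 the dKO difference was -0.44 (adjusted p = 0.0828), and without the libraries richest in lymphocyte RNA it was -0.83 (adjusted p = 0.0575). Of the members that did not pass in iWAT, Dbp averaged 8.03 ± 1.69 CPM in dKO, 8.81 ± 3.81 CPM in UCP1 KO, 11.6 ± 4.73 CPM in FGF21 KO and 11.3 ± 5.56 CPM in WT. Nr1d2 differed by -0.42 in dKO (adjusted p = 0.1) and -0.45 in UCP1 KO (adjusted p = 0.0648). The UCP1 KO difference passed without the libraries richest in lymphocyte RNA, at -0.57 (adjusted p = 0.0348), and without WT replicate 4 (adjusted p = 0.0446), WT replicate 6 (0.0282) or UCP1 KO replicate 2 (0.0151), and the dKO difference passed without WT replicate 6 (0.0466). Arntl and Clock lay within 0.10 of WT on the log2 scale in both contrasts.

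In muscle, a tissue without UCP1-driven heat production, Arntl and Nr1d1 were lower in UCP1 KO, and Cry1 did not pass (log2 difference -0.14, adjusted p = 0.397). Of the 10 members these 2 passed between UCP1 KO and WT, where 12.3% of all 15120 genes tested passed (5.89% higher and 6.42% lower). No member passed between dKO and WT, where 10.3% of all genes passed (4.85% higher and 5.46% lower). An unadjusted p under 0.05 was found for 2 members, beside 3835 of all 15120 genes, a share near that of all genes. DESeq2 called 2 members, Arntl (adjusted p = 0.0252) and Nr1d1 (adjusted p = 0.042), beside 1880 of all genes.

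Nr1d1 in muscle had 197, 217 and 246 CPM in dKO (lowest, median, highest) and 110.3, 197.7 and 219.8 CPM in UCP1 KO, 261, 277, 295, 304 and 339 CPM in FGF21 KO, and 239.8, 268.4 and 299.6 CPM in WT. All UCP1 KO libraries lay below all WT libraries, and the dKO libraries reached the lower edge of WT. Nr1d1 fell by 0.55 in UCP1 KO (SE 0.12, adjusted p = 0.00434), and the dKO difference of -0.31 did not pass (SE 0.12, adjusted p = 0.0975). Without UCP1 KO replicate 5, the lowest library, the fall was 0.44 (adjusted p = 0.000627), and the dKO difference then passed (adjusted p = 0.00475). Thra moved the same way in muscle, to 57.5 ± 4.12 CPM in UCP1 KO against 68.8 ± 4.48 CPM in WT (SD, n = 6 each), a log2 difference of -0.26 (adjusted p = 0.00183), and its part in the Nr1d1 count was not tested.

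Arntl in muscle had 22.4, 29.8 and 41.7 CPM in dKO and 20.3, 31.0 and 43.3 CPM in UCP1 KO (lowest, median, highest), 36.8, 49.3, 51.7, 52.6 and 54.1 CPM in FGF21 KO, and 37.7, 45.9 and 56.9 CPM in WT. Of the 12 UCP1-deficient libraries 8 lay below the WT range. Arntl fell by 0.57 in UCP1 KO (SE 0.18, adjusted p = 0.0471), and the dKO difference was of like size, at -0.55 (SE 0.18, adjusted p = 0.061). The UCP1 KO call sat at the threshold: 13 of the 23 single left-out libraries ended it, with adjusted p up to 0.108 without WT replicate 4. It was also lost with adipocyte RNA as a covariate (-0.51, adjusted p = 0.113), with no low-count filter (adjusted p = 0.0695) and from the compared genotypes alone (adjusted p = 0.0825). Per1 averaged 20 ± 10.9 CPM in dKO, 30.9 ± 17.4 CPM in UCP1 KO, 16.6 ± 5.74 CPM in FGF21 KO and 15.7 ± 12.1 CPM in WT muscle. Its difference of 0.98 in UCP1 KO (SE 0.46) did not pass (adjusted p = 0.17), and was 1.49 (adjusted p = 0.0349) without WT replicate 3, a library with 39.1 CPM.

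In hypothalamus none of the 10 members passed in any contrast. Here 0.0555% of 18020 genes passed between dKO and WT (0.00555% higher and 0.0499% lower) and 0.0555% between UCP1 KO and WT (0.0166% higher and 0.0388% lower). Of the 10 members, 1 had an unadjusted p under 0.05 in dKO, beside 502 of the 18020 genes. In UCP1 KO 4 members had one, beside 979 genes, a larger share than over all genes. DESeq2 also called 0 members. The differences of the members from WT ran from -0.15 to 0.26 on the log2 scale over the 3 knockouts, and every 95% interval lay between -0.31 and 0.47. The outermost were Dbp in UCP1 KO (45.2 ± 5.94 CPM against 37.8 ± 3.34 CPM in WT, SD, n = 6 each, difference 0.26, adjusted p = 0.76), Per1 in UCP1 KO (80.1 ± 12.3 CPM against 66.8 ± 7.85 CPM, difference 0.26, adjusted p = 0.882) and Arntl in UCP1 KO (35.1 ± 1.86 CPM against 39.0 ± 2.45 CPM, difference -0.15, adjusted p = 0.677). Rises like that of Cry1 in fat lie outside these intervals: Cry1 averaged 22.2 ± 1.01 CPM in dKO (n = 5), 22.1 ± 1.86 CPM in UCP1 KO (n = 6), 21.3 ± 1.37 CPM in FGF21 KO (n = 5) and 22.5 ± 0.901 CPM in WT (n = 6). All 6 suprachiasmatic markers together summed to 209 to 260 CPM in dKO, 207 to 302 CPM in UCP1 KO, 152 to 201 CPM in FGF21 KO and 184 to 207 CPM in WT.

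Whether the UCP1 KO difference itself depended on the tissue was tested for each gene across tissue pairs. Between BAT and iWAT 2 members passed, where 56.6% of 15715 genes passed: the Cry1 difference was lower in BAT by 0.77 on the log2 scale (SE 0.23, adjusted p = 0.00421), and the Clock difference was lower in BAT by 0.25 (SE 0.08, adjusted p = 0.0083). Between BAT and muscle 6 members passed, where 50.6% of 14472 genes passed. There the difference in BAT minus that in muscle was 0.92 for Arntl (adjusted p = 0.0013), 0.83 for Cry1 (adjusted p = 0.000359), -0.67 for Cry2 (adjusted p = 0.0026), -0.89 for Nr1d2 (adjusted p = 0.002), -0.83 for Per3 (adjusted p = 0.0203) and -1.31 for Dbp (adjusted p = 0.026). Leaving out BAT WT replicate 2, BAT WT replicate 3 or muscle UCP1 KO replicate 2 ended the calls for Per3 (adjusted p up to 0.0953) and Dbp (up to 0.141), and limma-voom with tissue weights called neither (adjusted p = 0.0753 and 0.185).
Between iWAT and muscle 3 members passed, where 42.2% of 14618 genes passed: Cry1 at 1.64 (adjusted p = 4.86e-09), Arntl at 0.74 (adjusted p = 0.021) and Clock at 0.31 (adjusted p = 0.00945). The Arntl call was lost without muscle WT replicate 4 or UCP1 KO replicate 2 or 5 (adjusted p up to 0.0575). Nr1d1, lower in UCP1 KO in all 3 tissues, passed in no pair (smallest adjusted p = 0.214).

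Loss of FGF21 alone or on top of UCP1 gave no passing member. Between FGF21 KO and WT 0 of the 10 passed in each tissue with edgeR, where the share of all genes passing was 0.025% for BAT (0.0187% higher and 0.00624% lower), 0.00597% for iWAT (0.0% and 0.00597%), 0.0198% for muscle (0.00661% and 0.0132%) and 0.00555% for hypothalamus (0.0% and 0.00555%). An unadjusted p under 0.05 was found for 4 members in BAT, where 1514 of all 16032 genes had one, a smaller share. No member had one in iWAT, muscle or hypothalamus, where 456, 635 and 446 genes did. Between dKO and UCP1 KO 0 of 10 passed in each tissue, where the share of all genes was 1.73% for BAT (0.767% higher and 0.967% lower), 0.0358% for iWAT, 0.0% for muscle and 0.0111% for hypothalamus. There 1 member in BAT had an unadjusted p under 0.05, beside 2669 of all genes, and 1 in hypothalamus, beside 731. For the interaction of both knockouts 0 members and 0.0% of genes passed in each tissue, with 1 member in BAT under an unadjusted p of 0.05, beside 1168 of all genes. DESeq2 also called 0 members in each of these. The width of the intervals differs by gene: for Cry1 the 95% interval of dKO minus UCP1 KO ran from -0.32 to 0.28 in BAT and from -0.49 to 0.10 in iWAT, but for Dbp in BAT from -1.27 to 0.27 and for Per1 in BAT from -1.67 to 0.18.

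Dbp lies near the Fgf21 allele, so its tested neighbours Car11 (a carbonic anhydrase-related gene, chr7:45699843-45704682) and Sphk2 (sphingosine kinase 2, chr7:45709467-45718002) were read beside it. In FGF21 KO BAT, Dbp differed from WT by -1.35, Car11 by -0.34 (adjusted p = 0.417) and Sphk2 by -0.22 (adjusted p = 0.512). Car11 fell in BAT by 2.45 in dKO (adjusted p = 2.74e-12) and by 2.15 in UCP1 KO (adjusted p = 1.3e-11) against WT. Sphk2 differed by 0.01 in dKO (adjusted p = 0.916), rose by 0.37 in UCP1 KO against WT (adjusted p = 0.00234), and was lower by a log2 difference of -0.36 in dKO against UCP1 KO (adjusted p = 0.0494). In the other tissues Dbp differed by 0.04 in iWAT, 0.15 in muscle and -0.15 in hypothalamus between FGF21 KO and WT. Car11 averaged 54.9 ± 2.81 CPM in dKO (SD, n = 5) and 53.9 ± 2.30 CPM in FGF21 KO hypothalamus (n = 5), against 68.9 ± 3.41 CPM in UCP1 KO and 65.6 ± 6.61 CPM in WT (n = 6 each). Between dKO and UCP1 KO this was a fall of 0.33 (adjusted p = 0.0334), while the FGF21 KO difference of -0.28 did not pass over all genes (adjusted p = 0.0958). In FGF21 KO against WT, Car11 differed by -0.35 in muscle (adjusted p = 0.674) and by -0.16 in iWAT. Between dKO and UCP1 KO it differed by -0.29 in BAT, -0.21 in iWAT and -0.12 in muscle. None of these passed. The part of the Fgf21 allele in Dbp was not tested.

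The members differed widely in how much they varied among libraries of 1 genotype. In BAT the within-group SD of log2 CPM was 0.74 for Per1, 0.66 for Dbp and 0.64 for Per2, at the 97.5th, 97th and 96.9th percentile of all genes tested, and 0.05 for Clock, at the 0.437th percentile. In muscle Per1 (0.79), Per2 (0.55) and Dbp (0.50) stood at the 99.9th, 99.6th and 99.4th percentile. In iWAT the members ran from percentile 18.8 (Clock, 0.15) to 90.6 (Per1, 0.59). In hypothalamus no member exceeded 0.19, where the median of all genes tested was 0.107. The members there ran from percentile 4.01 (Cry2) to 81.9 (Per1).

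Within a genotype, libraries with more Arntl had less Dbp. After the mean of each genotype was subtracted, log2 CPM of Dbp and Arntl had a Pearson r of -0.794 for BAT (n = 22, permutation p = 0.00323, adjusted over the 4 tissues 0.00431), -0.832 for iWAT (n = 23, permutation p = 2e-05, adjusted 8e-05), -0.729 in muscle (n = 23, permutation p = 0.00049, adjusted 0.00098) and -0.496 in hypothalamus (n = 22, permutation p = 0.0335, adjusted 0.0335), all two-sided. Spearman's rho was -0.748 (permutation p = 0.00155), -0.816 (6e-05), -0.678 (0.00201) and -0.499 (0.0356) in the same order. Without the 2 libraries farthest from the median of Arntl, r was -0.65 for BAT, -0.793 for iWAT, -0.63 for muscle and -0.351 for hypothalamus. It was also negative in UCP1-deficient libraries alone (-0.66, -0.875, -0.697 and -0.529) and in UCP1-intact libraries alone (-0.82, -0.829, -0.859 and -0.472). The 2 WT BAT libraries with most Dbp, replicates 3 and 2 at 25.5 and 17.5 CPM, had the least Arntl of that group, at 14.3 and 18.4 CPM.

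**Figure D4:**
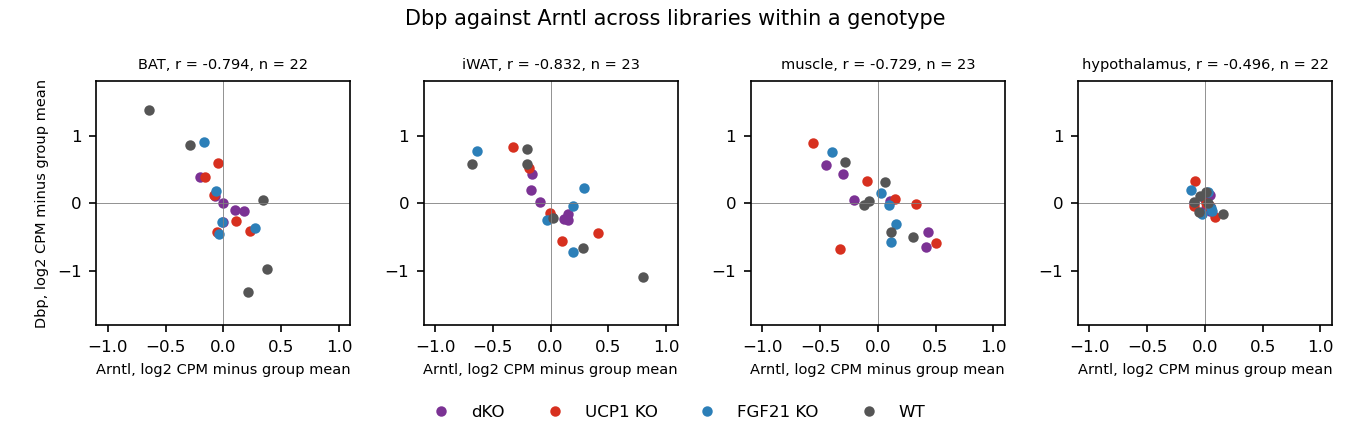
Dbp (y axis) against Arntl (x axis) in log2 CPM minus the mean of the library's genotype, one panel per tissue and one point per library. Points run from upper left to lower right in BAT, iWAT and muscle, and crowd near 0 in hypothalamus.

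The log2 ratio of Dbp to Arntl counts sets the output against the activator in each library, as a description with no test. Its median in BAT was -3.06 in dKO, -2.59 in UCP1 KO, -2.73 in FGF21 KO and -1.56 in WT, and the WT libraries ran from -2.91 to 0.83. In iWAT the medians were -1.99, -2.05, -1.53 and -1.14 in the same order of genotypes. In muscle they were 0.65, 0.12, -0.43 and -0.27, with both UCP1-deficient medians above both intact ones. In iWAT both lay below, and in BAT the FGF21 KO median lay between those of dKO and UCP1 KO.
Over the 90 libraries, centred on tissue and genotype, Dbp ran with Per3 (r = 0.793) and Nr1d2 (0.76) and against Cry1 (-0.749), and Per1 ran with Per2 (0.715). Among 14045 genes tested in all tissues, the non-members most like Dbp were Tef (0.648), its D-box-binding relative, Ciart (0.609), a repressor of BMAL1 and CLOCK, and Apbb3 (0.521). Among those most like Arntl were Npas2 (0.783), the paralog of Clock, and Leo1 (0.752), a subunit of the PAF1 elongation complex. Npas2 and Ciart had their highest values in muscle (0.927 with Arntl and 0.92 with Dbp). Their lowest were 0.345 in hypothalamus for Npas2 and 0.294 in iWAT for Ciart, and Apbb3 with Dbp was 0.00692 in muscle. In hypothalamus alone, Dbp had r = 0.53 with Per3, 0.09 with Nr1d2 and -0.34 with Cry1, and Per1 had 0.39 with Per2. These correlations share libraries and are given as descriptions.

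UCP1 KO replicate 5 stood out for Per1 in 3 tissues, with 70.9 CPM in BAT, 70.8 CPM in iWAT and 57.9 CPM in muscle, the highest of all libraries of each tissue. The number only follows the order of deposit, and the labels do not say that these libraries are from 1 mouse. The same libraries led Per2 as well, at 21.1, 19.6 and 15.2 CPM. The mean log2 CPM of 7 glucocorticoid-responsive genes, Per1 not included, was highest in the library of this number in BAT (4.89), muscle (6.02) and hypothalamus (5.53) and second highest in iWAT (5.19), and Fkbp5, a glucocorticoid receptor target, reached 160 CPM there in muscle. Without it, Per1 in UCP1 KO against WT was -0.49 in BAT (adjusted p = 0.249), -0.17 in iWAT (adjusted p = 0.551) and 0.70 in muscle (adjusted p = 0.355), so its sign in both fat depots rested on that library. Per3 in iWAT passed without it, at -0.70 (adjusted p = 0.0117).

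**Figure D5:**
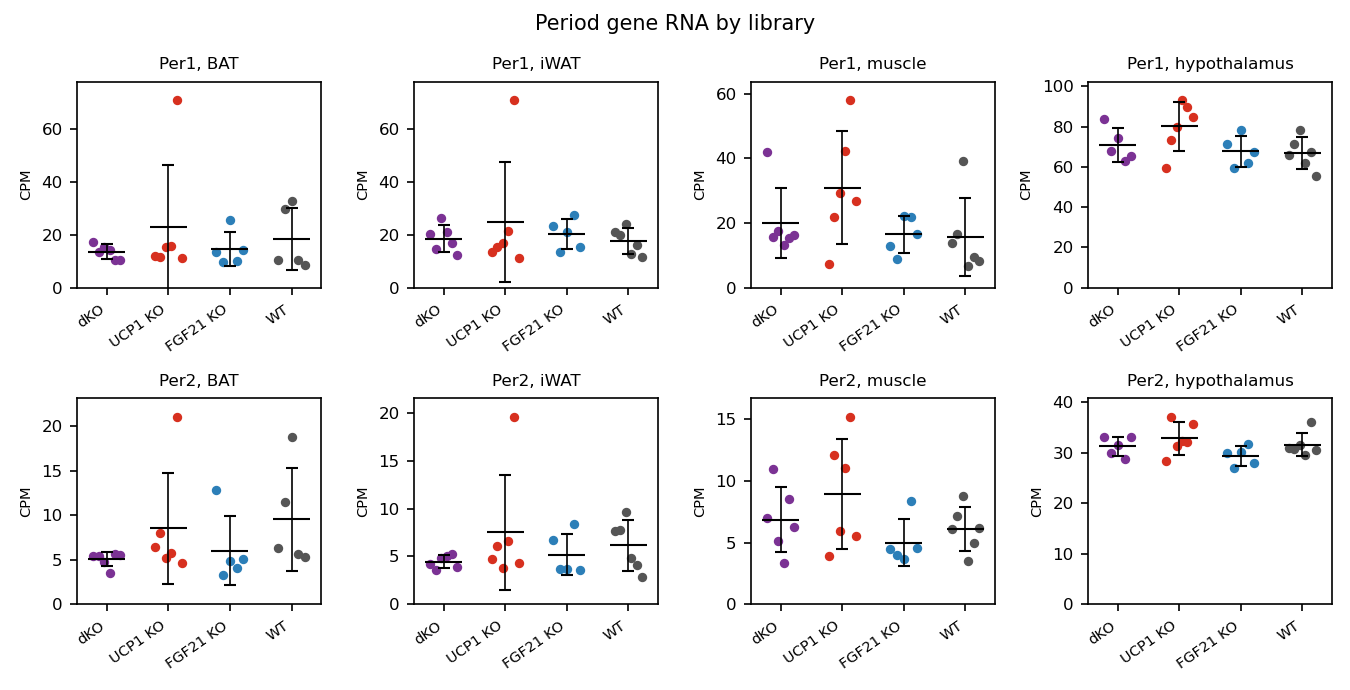
Per1 (top) and Per2 (bottom) RNA in CPM in each library of the 4 tissues, by genotype, with the mean as a line and bars of 1 SD, cut at 0 where they would run below it. A single UCP1 KO library lies far above its group in BAT and iWAT for both genes, at 70.9 and 70.8 CPM for Per1.

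Lists of other clock genes were counted in the same way, and are read against the share of all genes passing: in dKO and UCP1 KO against WT, 59.1% and 60.1% for BAT, 37.0% and 46.3% for iWAT, 10.3% and 12.3% for muscle, and 0.0555% in each for hypothalamus. Of 11 further loop regulators, 1 was higher and 4 were lower in dKO and likewise in UCP1 KO BAT against WT, a smaller share than over all genes, with the list's median at -0.43 and -0.38 on the log2 scale. Nfil3, the repressor at D-boxes, rose by 1.20 in dKO (adjusted p = 5.74e-07) and by 1.07 in UCP1 KO (adjusted p = 2.18e-06). Among the lower regulators were Bhlhe40, a repressor at E-boxes, and Tef and Hlf, D-box activators like Dbp. In iWAT 3 were higher and 0 lower in dKO, and 5 were higher and 1 lower in UCP1 KO (medians 0.09 and 0.64). Nfil3 rose there by 1.20 in dKO (adjusted p = 0.000583) and by 1.36 in UCP1 KO (adjusted p = 0.000127), and Npas2 fell by 0.94 in UCP1 KO (adjusted p = 0.0187). None of 10 measured in muscle and none of 11 in hypothalamus passed.

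Of 8 kinases and ubiquitin ligases that set the life of the Period and Cryptochrome proteins, 2 were higher and 3 lower in dKO and in UCP1 KO BAT, near the share of all genes (medians -0.10 and -0.06). Gsk3b fell by 0.85 in dKO (adjusted p = 5.54e-10) and by 0.86 in UCP1 KO (adjusted p = 3.57e-10). Csnk2a1, a casein kinase 2 subunit, rose by 0.36 in dKO BAT (adjusted p = 1.13e-06), and Csnk1d, a casein kinase 1, by 0.18 in UCP1 KO BAT (adjusted p = 0.00132). In iWAT 1 was higher and 2 lower in dKO and 2 higher and 2 lower in UCP1 KO. Csnk2a1 rose by 0.57 in dKO (adjusted p = 2.96e-05) and by 0.66 in UCP1 KO (adjusted p = 3.31e-06). None passed in muscle or hypothalamus.

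Of 8 genes under clock control, 2 were higher and 2 lower in each of dKO and UCP1 KO BAT, near the share of all genes (medians 0.05 and 0.26). Coq10b rose by 0.79 in dKO (adjusted p = 1.07e-08) and by 0.60 in UCP1 KO (adjusted p = 4.4e-07), and Nampt, the rate-limiting enzyme of NAD salvage, fell by 0.65 (adjusted p = 6.16e-08) and by 0.89 (adjusted p = 5.01e-10). In iWAT 3 were higher and 1 lower in dKO, and 5 higher and 1 lower in UCP1 KO. Coq10b rose there by 1.4985 in dKO (adjusted p = 9.22e-08) and by 1.68 in UCP1 KO (adjusted p = 1.73e-08), and Cys1 fell by 0.80 (adjusted p = 0.0148) and by 0.92 (adjusted p = 0.00457). In muscle 1 was higher in dKO and 2 in UCP1 KO, and Usp2, a deubiquitinase, rose by 0.32 in dKO (adjusted p = 0.0205) and by 0.49 in UCP1 KO (adjusted p = 0.00116).

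Of 8 immediate early genes, 2 were higher and 1 lower in dKO BAT, 2 higher in UCP1 KO BAT, 1 lower in UCP1 KO iWAT, none in dKO iWAT, and 1 higher in each of dKO and UCP1 KO muscle. The shares in BAT and iWAT were below those of all genes. Egr2 rose by 1.45 in dKO BAT (adjusted p = 0.000176) and by 2.04 in UCP1 KO BAT (adjusted p = 2.7e-06), Fosb fell by 1.09 in dKO BAT (adjusted p = 0.00578), Egr1 fell by 1.18 in UCP1 KO iWAT (adjusted p = 0.00646), and Junb rose in muscle by 0.76 in dKO (adjusted p = 0.0167) and by 0.71 in UCP1 KO (adjusted p = 0.0223).
Of 8 glucocorticoid-responsive genes, Per1 included, 2 were lower in dKO BAT, with Mt2 down by 0.74 (adjusted p = 0.0247), and 1 was higher in UCP1 KO BAT, Fkbp5, up by 0.68 (adjusted p = 0.0359). In iWAT 3 were lower in dKO, led by Errfi1, which fell by 0.71 (adjusted p = 0.00454), and in UCP1 KO Sgk1 rose by 0.58 (adjusted p = 0.0229) while Errfi1 and Zbtb16 fell, Zbtb16 by 1.30 (adjusted p = 0.0013). These shares were below those of all genes in BAT and near those of all genes in iWAT. None of these 8 passed in muscle, and no gene of either list passed in hypothalamus. In UCP1 KO muscle 5 of the 8 had an unadjusted p under 0.05 in edgeR, beside 4207 of all 15120 genes, a larger share. In dKO muscle 1 had one, beside 3835 genes, a smaller share.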

How the data were processed

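Strand-specific poly(A) libraries were read as pairs of 100 bases, per the labels' protocols. Reads were aligned with STAR to mm10 and counted with HTSeq, per the submitters' processing notes, which give no versions. Each library has 1 deposited file of unnormalized whole-number counts by gene. Repeated names (66) were summed, leaving 32697 gene rows, and 2 rows that name no gene (at most 0.22% of counts) stayed out. Replicate numbers follow the order of deposit and pair nothing. Replicates of 210 within-group pairs differed beyond counting error. Nothing in the labels ties libraries to separate mice, so p-values measure spread between libraries.

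Genotypes were compared within each tissue on its own in edgeR 4.0.16 (R 4.3.3) with TMM scaling, filterByExpr and robust quasi-likelihood F tests. Adjustment was Benjamini-Hochberg over all genes at a threshold of 0.05, with all 4 genotypes in the fit. Differences between tissues came from a joint fit of both tissues of a pair, with libraries unpaired. That fit shared its estimate of spread between tissues whose spread differed. SE is the log2 fold change divided by the root of F. CPM uses TMM library sizes, and correlations use log2(CPM + 0.5) with 100000 permutations within genotype. Tests were checked on simulated counts. Alternatives were DESeq2 1.42.0, RLE factors, no low-count filter, a neighbouring-tissue covariate or left-out libraries, the compared genotypes alone, single left-out libraries and, for tissue differences, limma 3.58.1 voom. The genes and lists were chosen with earlier results of these data known. All members are named, and of each other list the called gene with the smallest p in each direction. Some genes that this rule names are not reported here. Bhlhe40, Tef, Hlf, Thra and Errfi1 in UCP1 KO were named after their values were seen.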

Additional observations from a re-analysis of the deposited data

Results flagged for a closer look

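Single libraries far from the rest of their group were found in 17 of 160 gene and group combinations. The rule has a nominal rate of about 1 in 20 for independent, normally spread values. The genes share libraries and CPM was not log-transformed, so the observed and nominal rates are not compared. The libraries numbered UCP1 KO replicate 5, which the labels do not tie to 1 mouse, account for 6 of the 17. They held 70.9 CPM of Per1, 21.1 CPM of Per2 and 37.4 CPM of Cry2 in BAT, 70.8 CPM of Per1 and 19.6 CPM of Per2 in iWAT, and 110.0 CPM of Nr1d1 in muscle. Other BAT libraries so placed were dKO replicate 2 for Clock (60.6 CPM), FGF21 KO replicate 3 for Per1 (25.8 CPM) and FGF21 KO replicate 1 for Per2 (12.8 CPM). In muscle they were dKO replicate 1 for Per1 (42.1 CPM), dKO replicate 5 for Cry1 (11.5 CPM), FGF21 KO replicate 4 for Arntl (36.8 CPM) and Per2 (8.38 CPM), and WT replicate 3 for Per1 (39.1 CPM). In hypothalamus they were UCP1 KO replicate 2 for Dbp (56.5 CPM), UCP1 KO replicate 6 for Nr1d2 (121.0 CPM) and WT replicate 5 for Per2 (36.1 CPM).

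The log2 difference between UCP1 KO and WT itself differed between tissues in 11 tests. BAT minus iWAT was -0.253 for Clock and -0.768 for Cry1. BAT minus muscle was 0.918 for Arntl, -0.826 for Per3, 0.826 for Cry1, -0.671 for Cry2, -0.89 for Nr1d2 and -1.312 for Dbp. The iWAT minus muscle value was 0.741 for Arntl, 0.309 for Clock and 1.636 for Cry1. Leaving out some single libraries ended the calls for Per3 and Dbp between BAT and muscle and for Arntl between iWAT and muscle.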

How the results depend on the processing

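No member call reversed its direction under any alternative run. With no low-count filter, with the adipocyte covariate and from the compared genotypes alone, 1 member passed between UCP1 KO and WT muscle. Calls over all genes fell too, from 1860 in the fit reported above to 1446, 1177 and 884 in that order. Leaving out single libraries gave 1 to 3 members. Between dKO and WT muscle the member count was 2 with DESeq2, 1 from the compared genotypes alone, and 0 to 1 with single libraries left out. Over all genes 1558 passed there in the fit reported above, 1880 with DESeq2 and 1715 from the compared genotypes alone. In iWAT the UCP1 KO count ran from 1 (without WT replicate 2) to 5 (without WT replicate 4), and the number of members whose difference depended on iWAT or muscle ran from 2 to 6 (without muscle UCP1 KO replicate 1). Over the 21 member calls, 131 alternative values kept their side of the threshold and 14 did not. These values are the alternative fits and, of the single left-out libraries, only the one with the largest adjusted p for each call. Calls lost on leaving out further libraries, as for Arntl in muscle, and calls gained are not in these counts. The causes were not tested. No muscle library was rich enough in neighbouring RNA to be left out. No paired analysis was possible because the labels give no replicate numbers and tie no libraries to a mouse. The libraries held 18067899 counts or more, and every member passed the low-count filter in each tissue.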
